A study of Mus musculus with 36 samples.

Results

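The genes described are 10 markers of T cells and natural killer (NK) cells, measured by RNA sequencing in whole mouse liver. They are the 3 CD3 chains Cd3d, Cd3e and Cd3g, the coreceptors Cd4, Cd8a and Cd8b1, and the cytotoxic genes Nkg7, Gzma, Gzmb and Prf1. They were found by symbol, and all 10 are among the 24421 genes that were counted in each of 36 libraries. All 36 livers came from male C57BL/6J mice, bought at 7 weeks of age, that spent 12 weeks on CDAHFD, a fatty diet of defined amino acids without choline on which mice develop steatohepatitis. Mice of the HFD experiment next ate a high-fat diet, the HFD, over 2 weeks and received once-weekly subcutaneous Fc at 4.3 mg/kg (10 mice) or Fc(mML1)B3 at 5 mg/kg (10 mice). In the other experiment, mice ate a standard diet for 10 days and received the same doses of Fc (9 mice) or Fc(mML1)B3 (7 mice) on days 1, 4 and 7. Fc is the constant fragment of an antibody without a peptide and served as the control, and Fc(mML1)B3 carries a macrocyclic peptide that binds and activates Met, the receptor of hepatocyte growth factor. Diet therefore goes together with experiment, number of injections and time, and these cannot be told apart. Mice before treatment and mice kept on a normal diet throughout were not analysed here.

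T cells recognise peptides on MHC molecules through the T-cell receptor, and the CD3 chains carry its signal into the cell. CD4 and CD8 bind MHC class II and class I and divide T cells into helper and cytotoxic lineages, and CD8 is made of an alpha chain (Cd8a) and a beta chain (Cd8b1). Cytotoxic T cells and NK cells, which lack the T-cell receptor, kill by releasing granules with perforin (Prf1), which forms pores, and granzymes (Gzma and Gzmb), proteases that enter the target cell. Nkg7 encodes a membrane protein of these granules. The liver holds many resident NK and CD8 T cells, and their numbers and activation change in steatohepatitis.

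The 36 libraries held 14949035 to 28466853 reads assigned to genes. Each end of a read pair was counted as a read, so the 10 genes rest on few molecules. Their reads summed to between 115 and 526 per library, and 74.7% of the 360 values were even numbers. Levels are given as CPM, the read count divided by the size of the library in megareads, with a TMM factor that adjusts for library composition. In whole liver, fewer cells of a type and less RNA per cell cannot be told apart. The 3 Fc libraries of mice 6, 7 and 8 under the HFD lay highest for the summed genes and were also among the 8 shallowest HFD libraries, which held at most 15921447 reads. The other HFD libraries were 7 of Fc and 5 of Fc(mML1)B3.

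The genes lie on 6 chromosomes of the mm10 genome. Cd3g (chr9:44969572-44980431, minus strand) and Cd3d (chr9:44981786-44987052, plus strand) start 1355 bases apart and are read in opposite directions. Cd3e (chr9:44998743-45009590, minus strand) follows 11691 bases beyond the end of Cd3d. Cd8b1 (chr6:71322812-71337451, plus strand) ends 35976 bases before Cd8a (chr6:71373427-71379171, plus strand), and Cd4 (chr6:124864693-124888209, minus strand) lies elsewhere on the same chromosome. The cytotoxic genes are scattered, with Nkg7 at chr7:43437138-43438246 (plus strand), Prf1 at chr10:61297836-61304263 (plus strand), Gzma at chr13:113093827-113100981 (minus strand) and Gzmb at chr14:56258858-56262260 (minus strand). None shared exonic bases with another gene of the counting annotation.

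Upstream sequences are shown for 2 pairs. Cd3d and Cd3g are neighbours that share the space between their starts, and Gzma and Gzmb are granzymes, of which Gzmb was called between the diets in Fc mice and Gzma was not. The Gzma and Gzmb pair was chosen after the values were seen. Each line gives the 250 bases before the start of the gene in RefSeq on GRCm38.p6, which is the same build as mm10, in the direction of the gene. Capitals mark matches, on either strand, to TGTGGT (a RUNX core), AGGAAG (an ETS core), CAGNTG (an E-box) or GGTGTGA (a T-box core).
Cd3d, chr9:44981536-44981785, plus strand: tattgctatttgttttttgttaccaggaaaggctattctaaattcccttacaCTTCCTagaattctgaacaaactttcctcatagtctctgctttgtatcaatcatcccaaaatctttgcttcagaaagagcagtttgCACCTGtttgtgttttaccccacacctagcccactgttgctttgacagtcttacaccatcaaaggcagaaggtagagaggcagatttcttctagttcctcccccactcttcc
Cd3g, chr9:44980432-44980681, minus strand: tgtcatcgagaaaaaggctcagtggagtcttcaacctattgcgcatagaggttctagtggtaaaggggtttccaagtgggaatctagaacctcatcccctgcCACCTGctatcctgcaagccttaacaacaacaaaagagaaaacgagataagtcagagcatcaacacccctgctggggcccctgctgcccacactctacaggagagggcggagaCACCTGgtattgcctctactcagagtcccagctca
Gzma, chr13:113100982-113101231, minus strand: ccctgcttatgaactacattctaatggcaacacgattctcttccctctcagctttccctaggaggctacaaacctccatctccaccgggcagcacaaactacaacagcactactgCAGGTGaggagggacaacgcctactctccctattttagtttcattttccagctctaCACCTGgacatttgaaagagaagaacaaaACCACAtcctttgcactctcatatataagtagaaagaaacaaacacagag
Gzmb, chr14:56262335-56262584, minus strand: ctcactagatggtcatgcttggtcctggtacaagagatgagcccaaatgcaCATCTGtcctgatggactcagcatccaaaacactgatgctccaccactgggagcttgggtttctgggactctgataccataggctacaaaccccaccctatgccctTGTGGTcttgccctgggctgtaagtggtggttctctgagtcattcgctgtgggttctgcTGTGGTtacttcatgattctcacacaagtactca
RUNX, ETS, E-box and T-box factors are families known to act in T and NK cells. RefSeq entries were matched for 8 genes, among them all but Cd4 and Cd8b1. The RUNX letters stood upstream of 4 of the 8 genes, namely Nkg7, Gzma, Gzmb and Prf1, against 14.05% of 32851 mouse promoters of this length. They stood upstream of neither Cd3d, Cd3e, Cd3g nor Cd8a. The E-box letters, which are common, stood upstream of 6 of the 8 genes and of 44.8% of all promoters. The ETS letters were found in 4 genes and 29.5% of promoters, and the T-box letters only in Nkg7 of the 8 and in 3.33% of promoters. Gzma and Gzmb both held RUNX and E-box letters. These matches are letters in a window and were not tested for binding.

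Per kilobase of exon, the scale on which levels of different genes can be compared, Nkg7 and Cd3g were the highest of the 10 genes in every group. In Fc mice under the HFD, Nkg7 reached 3.42 ± 1.41 CPM per kilobase (SD, n = 10) and Cd3g 3.23 ± 1.48, which differed by less than their spread. Cd3e followed at 1.72 ± 0.692, Cd3d at 1.503 ± 0.821 and Gzmb at 1.11 ± 0.676. Gzma and Cd8a both stood at 0.853, Cd8b1 at 0.831 ± 0.507 and Cd4 at 0.673 ± 0.343, all within 1 SD of each other. Prf1 was the lowest at 0.239 ± 0.102. In Fc mice under the standard diet the order was Nkg7 (1.88 ± 0.397, n = 9), Cd3g (1.18 ± 0.518) and then Gzma (0.887 ± 0.439), which had moved from the middle to the third place.

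**Figure D1:**
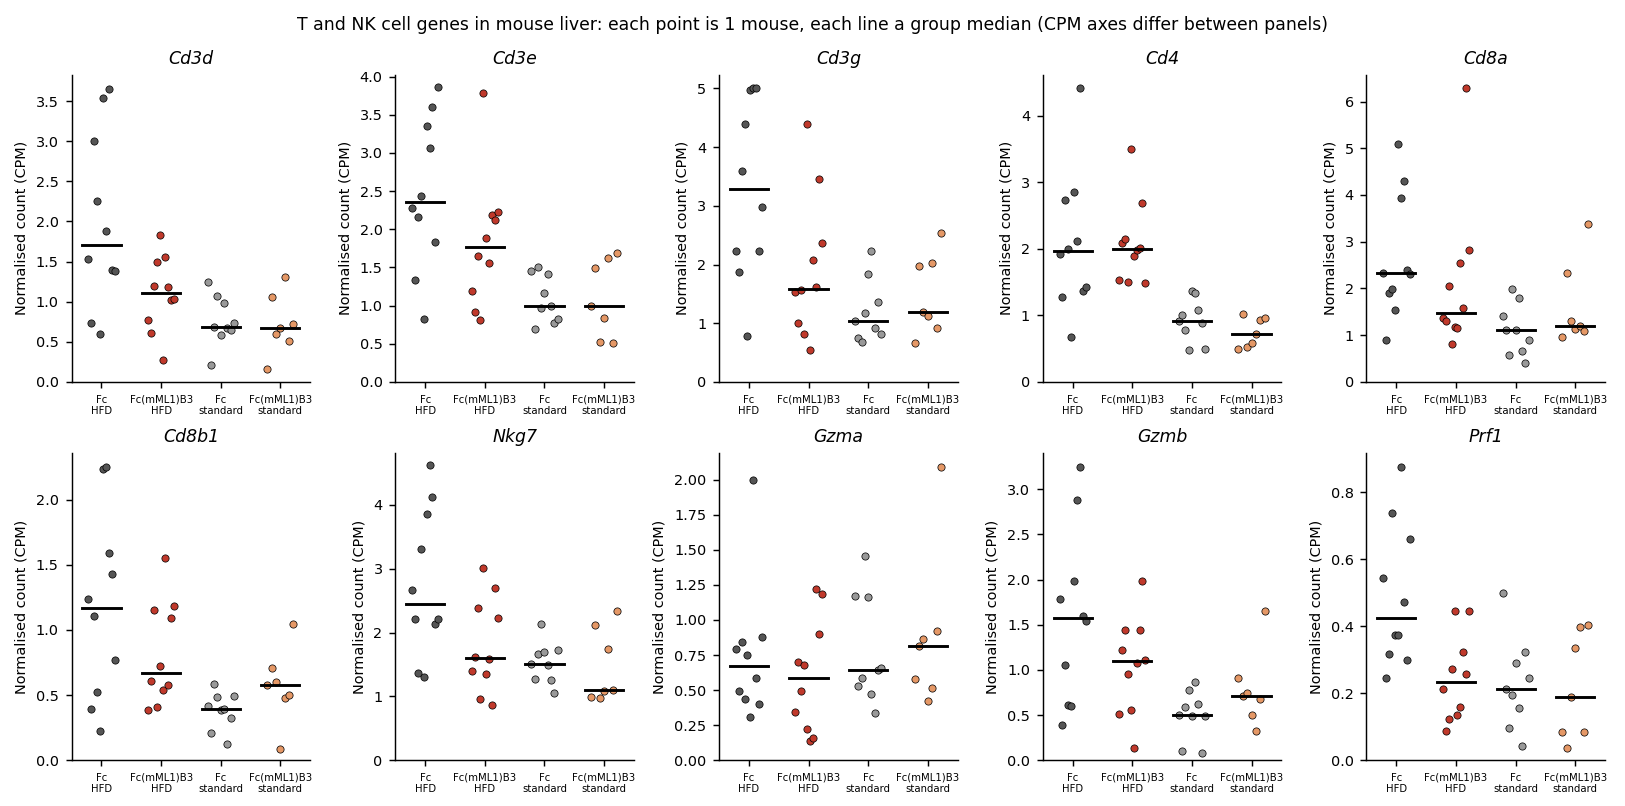
Normalised counts (CPM, vertical axes starting at 0 and scaled to each gene) of the 10 genes in the 4 groups; each point is 1 mouse and each line a group median. The Fc mice under the HFD reach the highest CPM of Cd3d, Cd3e, Cd3g, Cd4, Cd8b1, Nkg7, Gzmb and Prf1, while 1 Fc(mML1)B3 mouse under the HFD has the highest Cd8a (6.28 CPM) and 1 under the standard diet the highest Gzma (2.09 CPM).

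The first comparison asked how the Fc mice of the 2 diets differed, that is, mice that received no Met agonist. Of the 10 genes, 9 were lower under the standard diet and the exception was Gzma (edgeR quasi-likelihood test over all genes, adjusted p below 0.05). Of the 14105 genes tested, 47.9% differed in either direction and 24.6% were lower, so the comparison was broad. The median log2 fold change of the 10 genes was -1.21, against -0.05 over all genes tested. The summed CPM of the 10 genes was 7.68 to 31.02 with a median of 18.1 under the HFD, and 6.09 to 11.1 with a median of 7.75 under the standard diet. These groups overlapped, with Fc mice 2 and 5 under the HFD inside the range of the standard diet.

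The 3 CD3 chains were lower together. Cd3d had 15 to 62 raw reads (median 36.5) in Fc mice under the HFD and 4 to 30 (median 16) under the standard diet. Cd3e, which had 22 to 70 reads (median 51.5) under the HFD, had 13 to 36 (median 24). For Cd3g the values were 21 to 101 (median 67.5) and 14 to 57 (median 24). The reads of all 3 chains overlapped between the diets. On the CPM scale the means were 2.00 ± 1.09 and 0.759 ± 0.305 for Cd3d, 2.47 ± 0.994 and 1.09 ± 0.313 for Cd3e, and 3.30 ± 1.51 and 1.20 ± 0.530 for Cd3g (SD, n = 10 and 9). The log2 fold changes were -1.37 ± 0.329 (SE, adjusted p = 0.000851, edgeR) for Cd3d, -1.16 ± 0.275 (adjusted p = 0.000686) for Cd3e and -1.43 ± 0.329 (adjusted p = 0.000489) for Cd3g.

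The 3 coreceptor genes showed the same direction. Cd4 had 18 to 75 reads (median 40) under the HFD and 10 to 34 (median 22) under the standard diet. Cd8a, the alpha chain that some dendritic cells also carry, had 18 to 82 (median 46.5) and 10 to 46 (median 22). Cd8b1, whose beta chain is more restricted to T cells, had 6 to 43 (median 23) and 3 to 12 (median 10). Cd8b1 fell by 1.59 ± 0.371 on the log2 scale (SE, adjusted p = 0.000577, edgeR), Cd8a by 1.25 ± 0.346 (adjusted p = 0.00322) and Cd4 by 1.15 ± 0.251 (adjusted p = 0.0003). The 95% intervals of the 3 coreceptors overlapped one another, from -2.34 to -0.84 for Cd8b1, from -1.95 to -0.55 for Cd8a and from -1.65 to -0.64 for Cd4.

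Of the 4 cytotoxic genes, Gzmb, Prf1 and Nkg7 were lower and Gzma was not called. Gzmb had 8 to 55 reads (median 30) in Fc mice under the HFD and 2 to 22 (median 12) under the standard diet, and its log2 fold change of -1.61 ± 0.392 (SE, adjusted p = 0.000962, edgeR) was the lowest of the 10 genes. Prf1, the scarcest, had 5 to 17 reads (median 9.5) and 1 to 12 (median 4), with a log2 fold change of -1.05 ± 0.367 (adjusted p = 0.0172). It passed the filter for low counts mainly through the Fc mice under the HFD, where it was highest. Its call as lower than in those mice, counted among the 9, is therefore not independent support. With no filter beyond 1 read, 9 of 10 genes were called. Nkg7 had 26 to 76 reads (median 58) and 24 to 44 (median 35), a log2 fold change of -0.85 ± 0.24 (adjusted p = 0.00375). Gzma had 5 to 32 reads (median 14) under the HFD and 8 to 30 (median 16) under the standard diet, and the groups overlapped almost whole. Its mean was 0.749 ± 0.483 CPM against 0.779 ± 0.385 CPM, and its log2 fold change of 0.07 had a 95% interval from -0.67 to 0.82 (adjusted p = 0.885). The intervals of Gzmb (-2.40 to -0.81) and Gzma did not meet, but the difference between the genes was not tested.

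The diet comparison was repeated with subsets of the libraries, chosen after seeing the data. Without the 8 shallowest HFD libraries, 7 of the 9 genes still tested were lower, with Nkg7 at -0.50 (adjusted p = 0.0719, edgeR) and Prf1 below the filter for low counts. Without Fc mice 7 and 8 under the HFD, which were 2 of the 3 highest, 8 of 9 were lower. The standard-diet Fc libraries were numbered in 2 series, one for mice 1 to 5 and the other for mice 6 to 9. With mice 1 to 5 alone, 7 of 10 genes were lower and Nkg7 (adjusted p = 0.0501) and Prf1 (adjusted p = 0.116) were not called. With mice 6 to 9 alone, 9 of 10 were lower. Gzma had a log2 fold change of 0.41 with mice 1 to 5 (adjusted p = 0.470) and of -0.47 with mice 6 to 9 (adjusted p = 0.494). Neither was called, and the 2 series were not tested against each other.

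**Figure D2:**
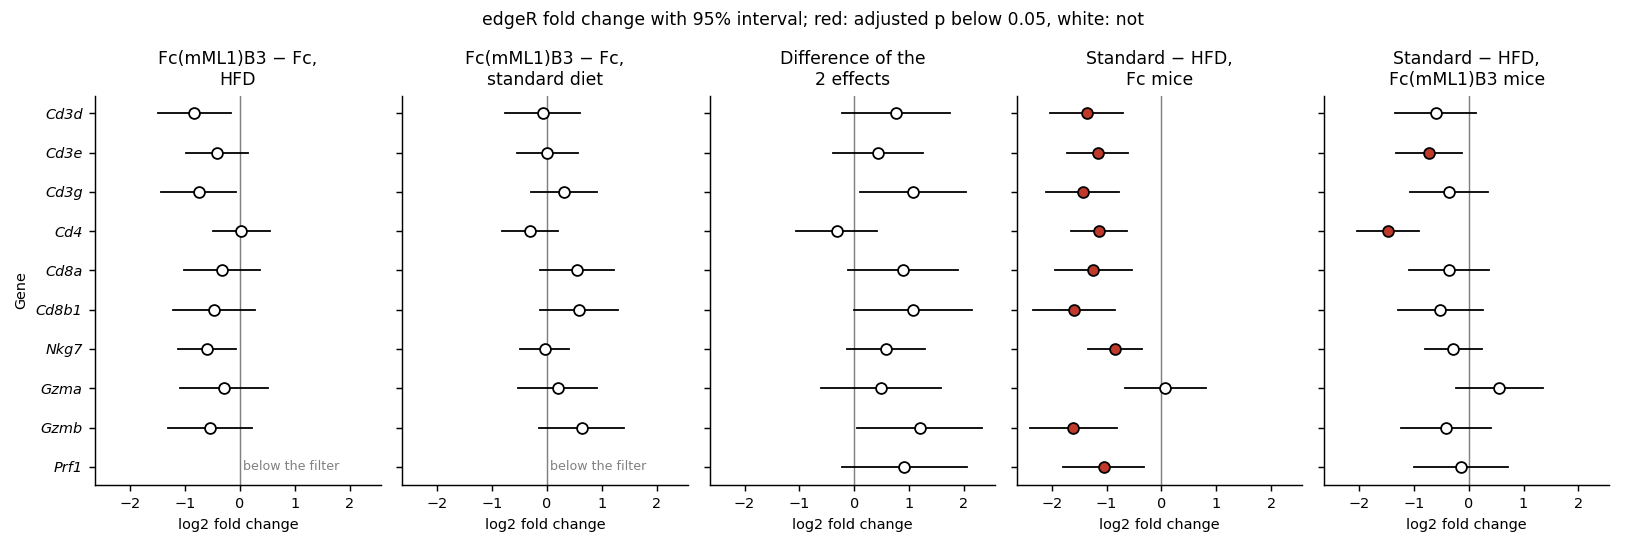
Log2 fold changes (horizontal axes) of the 10 genes in the 5 comparisons, with 95% intervals of the edgeR fit; red points passed an adjusted p of 0.05 and white points did not. In Fc mice 9 of 10 genes are red and below 0, in Fc(mML1)B3 mice only Cd3e and Cd4 are, and no gene is red in the panels of Fc(mML1)B3 against Fc or of the difference of the effects.

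Between the diets in Fc(mML1)B3 mice, 2 of the 10 genes were lower under the standard diet, against 38.5% of all genes in either direction and 17.9% lower. Cd4 had 20 to 63 reads (median 45) under the HFD and 12 to 29 (median 18) under the standard diet. In CPM the lowest Fc(mML1)B3 mouse under the HFD (1.48) lay above the highest under the standard diet (1.03), so the groups did not overlap. Cd4 fell by 1.47 ± 0.277 on the log2 scale (SE, adjusted p = 5.78e-05, edgeR), with an interval from -2.03 to -0.91. It was called in all 45 alternative fits, with log2 fold changes of -1.56 to -1.37. Cd3e had 12 to 68 reads (median 31.5) and 12 to 42 (median 24), with a log2 fold change of -0.73 ± 0.297 that passed narrowly (adjusted p = 0.0485). It passed in 27 of 45 alternatives, and the adjusted p ranged from 0.0257 to 0.275. Without Fc(mML1)B3 mouse 5 under the HFD it was 0.124. Without the 8 shallowest HFD libraries, 1 gene was called, Cd4, and Cd3e had a log2 fold change of -0.46.

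The other 8 genes were not called in Fc(mML1)B3 mice. Their log2 fold changes were -0.60 for Cd3d, -0.52 for Cd8b1, -0.41 for Gzmb, -0.36 for Cd3g and Cd8a, -0.28 for Nkg7, -0.14 for Prf1 and 0.56 for Gzma. Leaving out 1 library gave -0.55 to -0.15 for Cd3g, -0.65 to -0.016 for Cd8a and -0.43 to -0.17 for Nkg7. For Prf1 it gave -0.37 to 0.056, and for Gzma 0.18 to 0.76. The interval of Cd3d reached from -1.34 to 0.13 and that of Gzmb from -1.24 to 0.41. The test of whether the agonist changed the diet difference is the interaction given below. The median over the 10 genes was -0.39, against -0.02 over all genes tested.

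The next comparison asked whether the Met agonist changed these genes while the mice ate the HFD. None of the 9 genes that passed the filter was called (edgeR, adjusted p below 0.05), against 14.8% of 13299 genes in either direction and 6.68% lower, and none was called by DESeq2 or limma-voom. At an unadjusted p below 0.05 there were 3, Cd3d, Cd3g and Nkg7, against 29.8% of all genes. Of the 9 genes, 8 had a log2 fold change below 0, and so did 51.7% of all genes. The median was -0.47, against -0.01 over all genes. Without the 8 shallowest HFD libraries 6 of the 9 lay below 0 and the median was -0.13, and without Fc mice 7 and 8 the figures were 8 of 9 and -0.23. Summed CPM of the 10 genes was 8.03 to 22.5 (median 13.6) in Fc(mML1)B3 mice, within the range of the Fc mice.

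Among the 9 genes that passed the filter, Cd3d and Cd3g had the lowest fold changes under the agonist. Cd3d had 4 to 39 reads (median 20) in Fc(mML1)B3 mice, where Fc mice had 15 to 62, and a log2 fold change of -0.83 ± 0.32 (SE, adjusted p = 0.0834, edgeR). Cd3g had 8 to 79 reads (median 37), a log2 fold change of -0.75 ± 0.334 (adjusted p = 0.132). Cd3e had 12 to 68 reads (median 31.5) and a log2 fold change of -0.41 ± 0.271 (adjusted p = 0.315). Each chain overlapped between the groups, and Fc(mML1)B3 mouse 5 had the highest CPM of Cd3d, Cd3e and Cd3g in its group. Leaving out that mouse gave 2 calls, Cd3d (adjusted p = 0.0446) and Cd3g (adjusted p = 0.0355). Leaving out Fc mouse 5 gave 1 call, Cd3d (adjusted p = 0.0383), and 1 fit over all 36 libraries gave 2, Cd3d (adjusted p = 0.0485) and Prf1 (adjusted p = 0.0432). Over 32 alternatives, the adjusted p of Cd3d ranged from 0.0383 to 0.478. The log2 fold change ranged from -1.05 to -0.09 for Cd3e and from -1.36 to -0.44 for Cd3g. The Fc(mML1)B3 libraries were numbered in separate series, mice 1 to 4 and mice 5 to 10. Cd3e was 0.82 to 1.65 CPM in mice 1 to 4 and 1.55 to 3.78 CPM in mice 5 to 10. For Cd3g these were 0.82 to 1.57 and 0.54 to 4.40 CPM. No gene was called with either series alone. Without the 8 shallowest HFD libraries, none was called and Cd3d had a log2 fold change of -0.53 (adjusted p = 0.478).

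For the coreceptors under the agonist, Cd4 had 20 to 63 reads (median 45) in Fc(mML1)B3 mice and 18 to 75 (median 40) in Fc mice, and its mean was 2.08 CPM in both groups. The log2 fold change was 0.03 with an interval from -0.49 to 0.55, and its sign changed with the normalization. Cd8a had 12 to 98 reads (median 35), a log2 fold change of -0.32 ± 0.334 (SE), which was -0.66 without Fc(mML1)B3 mouse 9 and -0.16 without Fc mouse 6. Cd8b1 had 6 to 39 reads (median 15), a log2 fold change of -0.47 ± 0.359, which was 0.092 without the 8 shallowest HFD libraries.

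Among the cytotoxic genes, Nkg7 had 14 to 58 reads (median 35) in Fc(mML1)B3 mice under the HFD and a log2 fold change of -0.60 ± 0.257 (SE, adjusted p = 0.117, edgeR). Gzmb had 2 to 40 reads (median 21) and a log2 fold change of -0.54 ± 0.369, and Gzma had 2 to 34 (median 11) and -0.29 ± 0.386. Gzmb was at 0.10 without the 8 shallowest HFD libraries. Without Fc mouse 7 the value of Gzma was -0.0075, and without Fc(mML1)B3 mouse 8 it was -0.48. Prf1 fell below the filter for low counts, with 2 to 9 reads (median 4) against 5 to 17 (median 9.5) in Fc mice. Its mean log2 CPM was -1.66 ± 0.549 against -0.86 ± 0.506 (SD, n = 10 each), a difference of -0.80 (2-sided permutation test with 100000 resamples, p = 0.00398, 1 of 2 such tests and unadjusted). In edgeR fits that kept it, Prf1 had an adjusted p of 0.0552 with the filter at 0.5 CPM, 0.0661 with no filter beyond 1 read and 0.0432 in the fit over all 36 libraries, with log2 fold changes of -1.002 to -0.98. With Fc(mML1)B3 libraries 1 to 4 alone the log2 fold change was -1.47 and the adjusted p 0.0666.

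Under the standard diet, none of the 9 genes that passed the filter was called between Fc(mML1)B3 and Fc mice (edgeR), against 16.1% of 13570 genes, and none was called by DESeq2 or limma-voom. At an unadjusted p below 0.05 there were 0, against 29.3% of all genes. The median log2 fold change was 0.19, and 3 of the 9 genes lay below 0. The CD3 chains differed by -0.08 (Cd3d), 0.01 (Cd3e) and 0.31 (Cd3g), with intervals from -0.77 to 0.60, from -0.55 to 0.56 and from -0.30 to 0.91. These intervals leave room for changes of less than about 1 log2 unit in either direction. Fc(mML1)B3 mice had 4 to 33 reads of Cd3d (median 16), 12 to 42 of Cd3e (median 24) and 16 to 63 of Cd3g (median 32).

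The CD8 chains and Gzmb had the highest fold changes under the standard diet. Cd8a had 23 to 84 reads (median 30) in Fc(mML1)B3 mice and a log2 fold change of 0.55 ± 0.322 (SE, adjusted p = 0.266, edgeR), and Cd8b1 had 2 to 26 (median 14) and 0.59 ± 0.341 (adjusted p = 0.264). Gzmb had 8 to 41 reads (median 20) and a log2 fold change of 0.63 ± 0.371 (adjusted p = 0.269). Cd4 had 12 to 29 reads (median 18) and -0.31 ± 0.245. Gzma had 10 to 52 reads (median 22) and 0.19 ± 0.342, and Nkg7 had 24 to 60 (median 26) and -0.05 ± 0.212. Fc(mML1)B3 mouse 7 had the highest CPM of Cd3e, Cd3g, Cd8a, Cd8b1, Nkg7, Gzma and Gzmb in its group. All 7 Fc(mML1)B3 libraries but only 4 of the 9 Fc libraries belong to the second numbered series of the standard-diet libraries. Within that series Gzma was at 0.74 and Nkg7 at 0.10. Without Fc(mML1)B3 mouse 7 the log2 fold changes were 0.13 for Cd3g, 0.27 for Cd8a, 0.38 for Cd8b1, 0.35 for Gzmb and -0.17 for Gzma, and limma-voom gave 0.22 for Cd8b1. Prf1 was again below the filter, with 1 to 10 reads (median 5) against 1 to 12 (median 4), and its mean log2 CPM differed by -0.12 (2-sided exact permutation test, p = 0.745, unadjusted).

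An interaction term, fitted to the 36 libraries together, asked whether the agonist acted differently on the 2 diets. None of the 10 genes was called (edgeR, DESeq2 or limma-voom), against 9.06% of all genes in edgeR. At an unadjusted p below 0.05 there were 2, Gzmb and Cd3g, against 21.0% of all genes. The differences were 1.19 ± 0.561 log2 units for Gzmb (SE, adjusted p = 0.208), 1.07 ± 0.476 for Cd3g (adjusted p = 0.175) and 1.07 ± 0.531 for Cd8b1 (adjusted p = 0.239). Only Cd4 lay below 0, at -0.32 ± 0.369. The median over the 10 genes was 0.83, against 0.02 over all genes, and it was 0.46 over 9 genes without the 8 shallowest HFD libraries. Without those libraries the differences were 0.54 for Gzmb, 1.01 for Cd3g and 0.50 for Cd8b1. No gene was called in any of the 45 alternatives, of which 35 kept Prf1. The 5 comparisons share mice, so their values are not independent of each other.

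**Figure D3:**
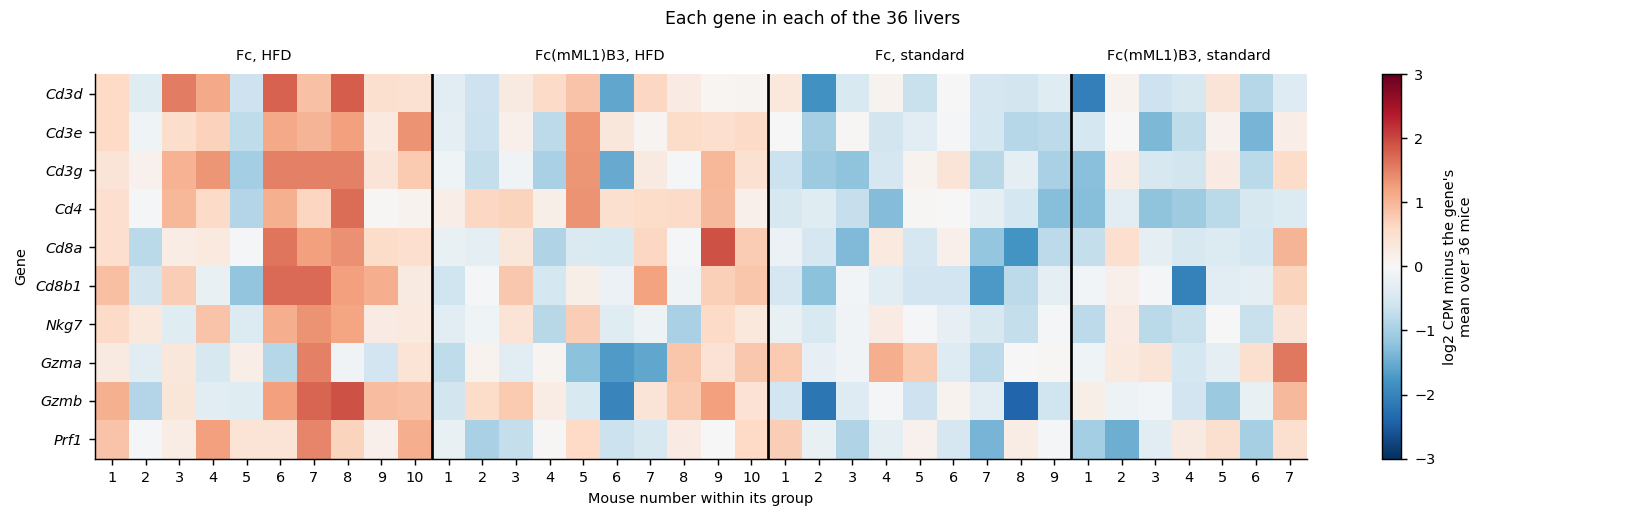
Log2 CPM of the 10 genes (rows) in the 36 livers (columns, numbered within their group), as the difference from each gene's mean over all mice, red higher and blue lower. Fc mice 6, 7 and 8 under the HFD are red in every row but Gzma, where only mouse 7 is, Fc(mML1)B3 mouse 5 under the HFD is red in the CD3 and Cd4 rows but not in Gzma, and Gzma shows no block by diet.

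Mice of 1 group differed several-fold. Among Fc mice under the HFD, Cd3g was 0.786 CPM in the lowest mouse and 5.01 CPM in the highest, and Cd8b1 was 0.225 and 2.25 CPM. In Fc mice under the standard diet Cd3g was 0.682 to 2.23 CPM, Cd8b1 0.125 to 0.585 CPM, Gzmb 0.0806 to 0.863 CPM and Prf1 0.0417 to 0.5004 CPM. The genes did not all peak in the same mice. Cd4 was highest in Fc mouse 8 under the HFD (4.42 CPM), Cd8a in Fc(mML1)B3 mouse 9 under the HFD (6.28 CPM), and Gzma in Fc(mML1)B3 mouse 7 of the standard diet group (2.09 CPM).

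After each group's mean was subtracted, the mean log2 CPM of the 3 CD3 chains was compared with 14102 other genes over the 36 libraries. Among the 5 most alike were Havcr2 (Pearson r = 0.80), a receptor of T cells and myeloid cells also known as Tim-3, Tbc1d10c (0.80), Fgl2 (0.80) and Runx3 (0.74), a transcription factor of CD8 T and NK cells. Of the other 7 genes of the set, Nkg7 (0.67) and Cd4 (0.67) were the most alike and Gzma (0.14) the least. For the mean of Nkg7, Gzma, Gzmb and Prf1 the 5 most alike were Ccl5 (0.76), a chemokine that cytotoxic lymphocytes make, Ppm1h (0.70), Cd8a (0.69), Stk10 (0.66) and Tcf24 (0.66). These correlations describe 36 libraries of 1 tissue that differ in depth, and they carry no test. With Spearman's correlation, 2 of the 5 genes most alike to the CD3 chains and 3 of the 5 most alike to the cytotoxic genes stayed among the top 5.

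The counts of the lists that follow stand against the shares over all genes. Called lower were 24.6% between the diets in Fc mice, 17.9% in Fc(mML1)B3 mice and 6.68% with the agonist under the HFD, and called in either direction were 16.1% with the agonist under the standard diet and 9.06% in the interaction. Of 20 listed genes of T-cell receptor signalling, 17 were counted and 16 tested, and 14 were lower under the standard diet in Fc mice and none was higher, with a median log2 fold change of -1.02. Among them were Themis (-1.25 ± 0.198, SE, adjusted p = 2.95e-06, edgeR), which acts in thymocyte selection, Lat (-1.61 ± 0.316, adjusted p = 7.33e-05), the adaptor below the receptor, Cd5 (-1.80 ± 0.398), Lck (-1.02 ± 0.228), the kinase that starts the signal, Zap70 (-0.77 ± 0.205) and Cd6 (-1.52 ± 0.431). In Fc(mML1)B3 mice 0 of 16 were called between the diets, with a median of -0.41. Under the HFD, 1 of 15 was lower with the agonist, Themis (-1.13 ± 0.183, adjusted p = 0.000192), a share near the 6.68% over all genes. All 15 had a fold change below 0, as did 51.7% of all genes, and the median was -0.47. Under the standard diet 1 of 12 was higher, Zap70 (0.53 ± 0.0865, adjusted p = 0.000293). Themis was also the 1 gene of 16 whose effect differed between the diets (1.38 ± 0.288, adjusted p = 0.00112). Zap70 stood at 7.36 ± 2.67 CPM per kilobase in Fc mice under the HFD, above each of the CD3 chains.

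Of 18 subset and state genes of T cells that were tested, 8 were lower under the standard diet in Fc mice and none higher, against 24.6% of all genes lower. They included Cxcr3 (-1.51 ± 0.269, SE, adjusted p = 1.97e-05, edgeR), a chemokine receptor of effector T cells, Lag3 (-0.94 ± 0.205), an inhibitory receptor, Lef1 (-1.46 ± 0.368), Gata3 (-1.27 ± 0.377) and Tbx21 (-1.12 ± 0.382). In Fc(mML1)B3 mice 5 of 18 were lower, against 17.9% of all genes, among them Cxcr3 (-1.03), Gata3 (-1.35), Lag3 (-0.64) and Il7r (-0.66). Of the 5 genes listed for gamma-delta and innate-like T cells, 2 were counted. Zbtb16, a factor of these cells that hepatocytes express too, rose under the agonist on the HFD (1.68 ± 0.323, adjusted p = 0.00102) and was higher under the standard diet in Fc mice (2.38 ± 0.425, adjusted p = 2.02e-05), opposite to the CD3 chains. Its effect of the agonist differed between the diets (-2.32 ± 0.607, adjusted p = 0.0105). Cd1d1, which presents lipids to NKT cells, was higher with the agonist under the standard diet (0.20 ± 0.0449, adjusted p = 0.0055).

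NK-cell receptors were mostly low. Of 15 listed genes, 2 (Klra4 and Klra8) had no reads in any library, and 9 were tested between the diets. In Fc mice 2 of 9 were lower under the standard diet, Klrd1 (-0.86 ± 0.31, SE, adjusted p = 0.0218, edgeR) and Klrk1 (-0.55 ± 0.221, adjusted p = 0.0389), receptors that activated T cells carry too. That is a share near the 24.6% of all genes that were lower. All 9 had a log2 fold change below 0, as did 55.0% of all genes, and their median was -0.54. None was called in Fc(mML1)B3 mice between the diets, by the agonist under either diet (6 and 7 tested) or in the difference of the effects. Ncr1, an NK-cell receptor, was named after its values were seen. It was at 0.485 ± 0.320 CPM (SD, n = 10) in Fc mice under the HFD and 0.485 ± 0.180 CPM (n = 9) under the standard diet. Klrb1c was at 1.15 and 0.929 CPM. Both had reads in every library.

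Of the partners of cytotoxic granules, 13 were tested between the diets. In Fc mice 5 were lower under the standard diet and none higher. These were Srgn (-0.63), the proteoglycan that packs granules, Xcl1 (-1.74), Ctsw (-1.26), a protease of cytotoxic lymphocytes, Ccl5 (-1.08) and Tnfsf10 (-0.39). In Fc(mML1)B3 mice 4 were lower, Srgn (-0.41), Xcl1 (-1.27), Serpinb6b (-0.69) and Rab27a (-0.48), and Tnfsf10 was higher (0.65). Under the HFD 2 of 11 were lower with the agonist, Serpinb9 (-0.61 ± 0.0956, SE, adjusted p = 0.000131, edgeR), an inhibitor of granzyme B, and Tnfsf10 (-0.63 ± 0.12, adjusted p = 0.000904), the death ligand TRAIL. Under the standard diet Serpinb9 (-0.46) and Serpinb6b (-0.77) were lower with the agonist and Tnfsf10 was higher (0.40), of 10 tested. The effect on Tnfsf10 differed between the diets by 1.05 ± 0.168 (adjusted p = 3.65e-05).

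Signals that recruit or sustain T cells, and the MHC class I pathway that CD8 T cells read, also differed between the diets. Of 9 cytokines tested in Fc mice, 7 were lower under the standard diet, among them Il15 (-1.04), a survival factor of NK and memory CD8 T cells, Cxcl10 (-0.88), a ligand of Cxcr3, Ccl19 (-1.20), Cxcl16 (-0.58), Il18 (-0.50) and Il7 (-1.21). In Fc(mML1)B3 mice 3 were lower, Ccl19 (-0.78), Il15 (-0.51) and Il12b (-1.47). With the agonist 1 of 8 was lower under the HFD, Il18 (-0.35 ± 0.115, SE, adjusted p = 0.042, edgeR), and none of 8 under the standard diet, and its effect on Il18 differed between the diets by 0.51. Of 10 MHC class I genes, 7 were lower and 1 higher under the standard diet in Fc mice, with Tap2 (-0.68), H2-D1 (-0.67), Psmb9 (-1.01), Tapbp (-0.31) and Psmb8 (-0.62) lower and Erap1 (0.54) higher. In Fc(mML1)B3 mice 3 were lower, H2-D1 (-0.46), Tap2 (-0.34) and Psmb8 (-0.36), and 2 higher, Erap1 (0.51) and Nlrc5 (0.52). Under the HFD 4 of 10 were lower with the agonist, Nlrc5 (-0.46), Tap1 (-0.59), Psmb9 (-0.70) and Tap2 (-0.30). Under the standard diet 2 of 10 were higher with the agonist, H2-K1 (0.21) and Erap1 (0.15). The effect differed between the diets for 5 of 10, Tap1 (0.68), Nlrc5 (0.53), Psmb9 (0.91), Tapbp (0.34) and Tap2 (0.34).

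**Figure D4:**
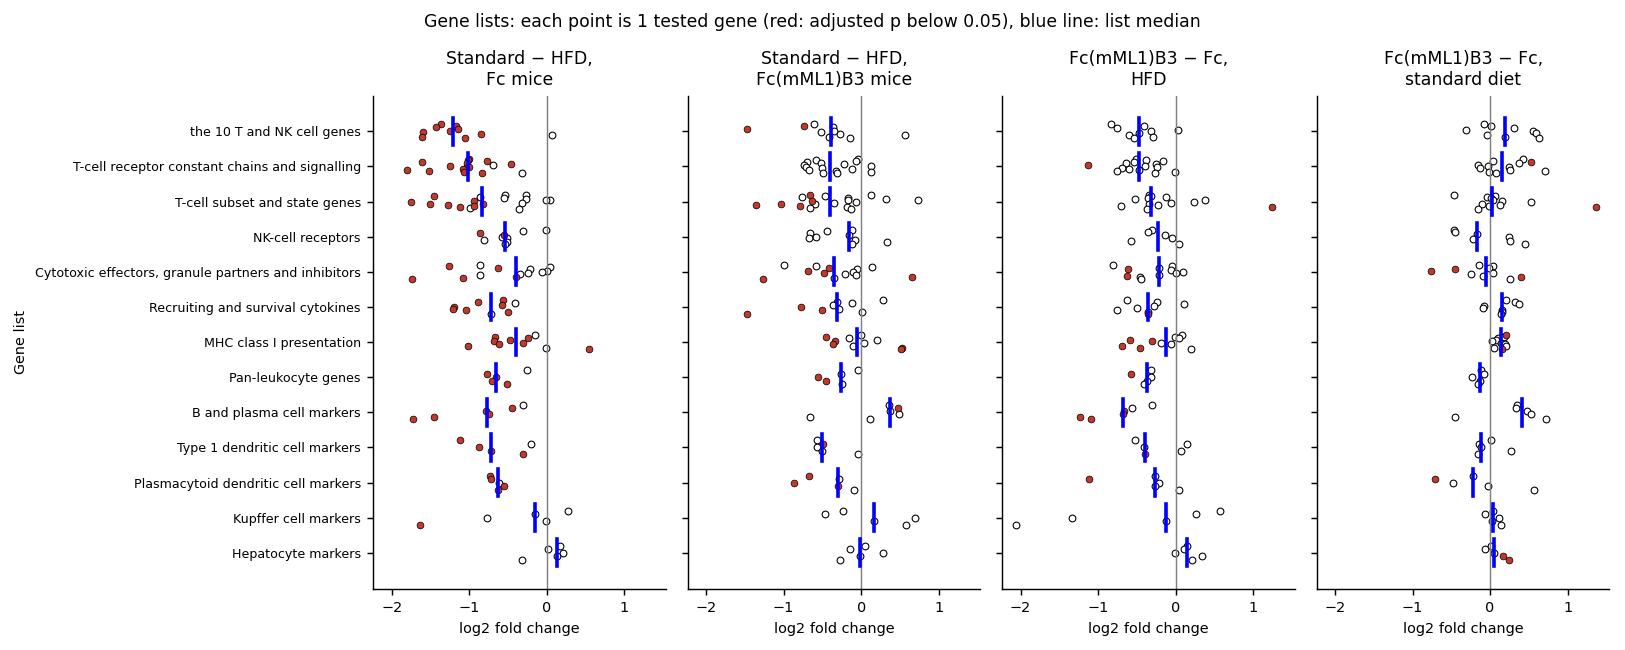
Log2 fold changes of every tested gene of 13 lists (rows) in 4 comparisons (panels), red where adjusted p was below 0.05 and with a blue line at the median of each list. In Fc mice the medians of the 10 T and NK cell genes (-1.21) and of the T-cell receptor signalling genes (-1.02) lie below those of the pan-leukocyte genes (-0.65), and the Kupffer cell (-0.16) and hepatocyte (0.14) medians lie near 0. Also below the pan-leukocyte median are those of T-cell subset genes (-0.84), B and plasma cell markers (-0.77), type 1 dendritic cell markers (-0.71) and cytokines (-0.71).

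Markers of several other leukocytes were lower along with the 10 genes in Fc mice, while Kupffer cell and hepatocyte markers were mostly not called. The part of these cells in the results was not tested. In Fc mice, 4 of 5 pan-leukocyte genes were lower under the standard diet, Laptm5 (-0.65), Coro1a (-0.77), Cd52 (-0.70) and Cd53 (-0.51). Their summed level was 138.9 to 296 CPM under the HFD and 102 to 160 CPM under the standard diet. B and plasma cell markers were lower for 5 of 6 (Mzb1, Jchain, Cd79b, Ms4a1 and Cd79a, from -1.72 to -0.44), type 1 dendritic cell markers for 4 of 5 (Xcr1, Batf3, Itgae and Wdfy4, from -1.12 to -0.30) and plasmacytoid dendritic cell markers for 4 of 5 (Tcf4, Siglech, Spib and Ly6d, from -0.74 to -0.55). Of the Kupffer cell markers 1 of 5 was lower, Marco (-1.63), of the neutrophil markers 1 of 3, Retnlg (-1.22), and of the hepatocyte markers none of 5, where 24.6% of all genes were lower. Kit (-0.42), the 1 tested mast cell marker, was lower as well.

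Between the diets in Fc(mML1)B3 mice, the lower ones were Laptm5 (-0.55) and Cd52 (-0.45) of 5 pan-leukocyte genes, Clec9a (-0.49), Siglech (-0.68), Tcf4 (-0.29), Ccr9 (-0.86), Retnlg (-1.29) and Kit (-0.53), and Cd79a (0.48) was higher. There the B and plasma cell markers had a median log2 fold change of 0.37 with 1 of 6 below 0. The 10 T and NK cell genes had a median of -0.39 with 9 of 10 below 0. Lower with the agonist under the HFD were 1 of 5 pan-leukocyte genes, Coro1a (-0.58 ± 0.168, SE, adjusted p = 0.0228, edgeR), 4 of 6 B and plasma cell markers (Mzb1, Jchain, Ms4a1 and Cd79b, from -1.24 to -0.67), Wdfy4 (-0.40), Ly6d (-1.12), S100a8 (-1.46) and S100a9 (-1.27). The summed level of the B and plasma cell markers was 11.4 to 37.6 CPM in Fc mice and 8.59 to 18.1 CPM in Fc(mML1)B3 mice. In the standard diet experiment none of 5 pan-leukocyte genes, 6 B and plasma cell markers or 5 Kupffer cell markers was called, Ly6d (-0.71) was lower, and Cyp2e1 (0.25) and Serpina1c (0.17) of the 5 hepatocyte markers were higher. The agonist's effect differed between the diets for 4 of 6 B and plasma cell markers, Mzb1 (1.83), Cd79b (1.17), Ms4a1 (1.23) and Cd79a (0.92).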

How the data were processed

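Livers stored in RNAlater gave directional libraries that were sequenced as read pairs of 100 bases, 1 mouse per library. Per the labels and the study's methods, the authors trimmed reads with fastp, removed ribosomal reads with Bowtie2 2.4.5, aligned to mm10 with STAR 2.7.10a and counted with featureCounts (Subread 2.0.3). The deposited values are unnormalised counts per gene in which each end is 1 read, strand was ignored and reads mapping to several places were left out. Groups came from the sample titles. The members and lists were chosen with earlier results of these data known.

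From the counts, edgeR 4.0.16 (R 4.3.3) gave TMM-normalised CPM and quasi-likelihood tests after filterByExpr, with Benjamini-Hochberg adjustment over all genes tested and a call at an adjusted p below 0.05. Each diet was fitted alone for Fc(mML1)B3 against Fc, and 1 model of the 4 groups over 36 libraries gave the diet comparisons and the interaction. SEs and 95% intervals are of the edgeR fit. Genes below the filter were compared by permutation of log2 CPM (prior count 2). The steps were tested on simulated data. All genes of the set were named, and from each other list those called, at most 6 by the smallest p, or, with none called, at most 2 by mean CPM. Ncr1 was named outside this rule as an NK marker, after its values were seen. Some results under this rule are not reported here. Likeness was Pearson's r after group means were removed. Columns of per-sample values left unused numbered 0. Within groups, 147 pairs of libraries were compared for duplicates, and the lowest chi-square per degree of freedom was 6.30. Depth was 14949035 to 28466853 reads.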

Additional observations from a re-analysis of the deposited data

Results flagged for a closer look

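The 10 genes and their sum were examined in the 4 groups for 1 mouse far from the others by Dixon's critical values, and 4 of the 44 sets had one. Those values let about 1 in 20 sets through by chance if CPM is normally distributed, which was not tested. Fc(mML1)B3 mouse 5 under the HFD had 3.78 CPM of Cd3e, and the next mouse of that group had 2.23 CPM. Cd8a was 6.28 CPM in Fc(mML1)B3 mouse 9 under the HFD, and the next had 2.82 CPM. Gzma was 2.00 CPM in Fc mouse 7 under the HFD, with the next at 0.882 CPM, and 2.09 CPM in Fc(mML1)B3 mouse 7 under the standard diet, with the next at 0.924 CPM.

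The interaction term of the edgeR fit called 13 genes of the lists and 0 of the 10 T and NK cell genes, of which 2 had an unadjusted p below 0.05 (no call with DESeq2 or limma-voom either). A positive value means a higher effect of Fc(mML1)B3 under the standard diet than under the HFD. In log2 units the differences were 1.38 for Themis, 1.05 for Tnfsf10 and 0.51 for Il18. Among MHC class I genes they were 0.68 for Tap1, 0.34 for Tap2, 0.34 for Tapbp, 0.91 for Psmb9 and 0.53 for Nlrc5. For B and plasma cell markers they were 0.92 for Cd79a, 1.17 for Cd79b, 1.23 for Ms4a1 and 1.83 for Mzb1. Zbtb16 went the other way, at -2.32.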

How the results depend on the processing

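In Fc mice, 7 to 9 of the genes tested were lower under the standard diet in every alternative, and 8 to 9 with 1 library left out, where Prf1 fell below the filter in those with 8. Between Fc(mML1)B3 and Fc under the standard diet, and in the difference of the effects, 0 genes were called in every alternative. Under the HFD 2 were called in 1 fit over all 36 libraries, 0 to 2 with 1 library left out and 0 in the other alternatives. Between the diets in Fc(mML1)B3 mice 1 gene was called with limma-voom, with no filter, without the 8 shallowest HFD libraries and with the replicate block, and 1 to 2 with 1 library left out.

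Reversals were among genes with no call. Cd4 under the HFD was at -0.00021 with upper-quartile normalization, -0.14 with Fc(mML1)B3 libraries 1 to 4 and -0.078 to 0.22 with 1 library left out. Without the 8 shallowest HFD libraries, Cd8b1 was at 0.092 and Gzmb at 0.10. Under the standard diet Cd3e was at -0.11 with limma-voom, -0.0039 with upper-quartile normalization, -0.013 with read pairs, -0.17 with the replicate block and -0.13 to 0.13 with 1 library left out. With 1 library left out Cd3d ranged from -0.29 to 0.087, Nkg7 from -0.19 to 0.033 (0.10 with the libraries numbered above 130) and Gzma from -0.17 to 0.35 (0.74 with those libraries). Gzma between the diets in Fc mice was at -0.016 with upper-quartile normalization, -0.47 with standard-diet Fc libraries 6 to 9 and -0.089 to 0.35 with 1 library left out. Prf1 in Fc(mML1)B3 mice ranged from -0.37 to 0.056. With Spearman's correlation, 2 and 3 of the 5 most alike genes stayed. The causes were not tested.

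Replicate numbers did not pair the mice (r of same-numbered mice -0.62 to 0.26 under the HFD and -0.16 to 0.00093 under the standard diet). As a replicate block they gave 0, 0, 0, 9 and 1 calls in the order HFD, standard diet, interaction, Fc and Fc(mML1)B3, and 1294 in place of 1972 calls over all genes under the HFD and 1296 in place of 2186 under the standard diet. Over all genes, the HFD comparison gave 3133 calls in 1 fit over 36 libraries, 3039 with limma-voom, 705 with Fc(mML1)B3 libraries 1 to 4, 650 without the 8 shallowest HFD libraries and 178 at the study's threshold. The standard-diet comparison gave 785 in 1 fit, 942 with the libraries numbered above 130 and 320 at the study's threshold, the interaction 2026 against 1278 with limma-voom, and the Fc comparison 4443 against 6759 with libraries 6 to 9. The intervals of the fold changes span more than 1 log2 unit for most of the 10 genes.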
